A study of Drosophila melanogaster with 17 samples.

Results

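Brains of flies with a null allele of Mdr65, the group labelled PMdr65 (3 arrays), were compared with brains of the group labelled UAS_control (3 arrays), which carried a UAS-Mdr65-RNAi construct. The comparison used 6 of the 17 arrays of the series and all 13290 probe sets of the series matrix, which stood for 8938 genes with 1 symbol each. Both groups were adult Drosophila melanogaster, with 4 brains of both sexes on each array. The labels name no GAL4 driver for the UAS line, so it was taken as a control without knockdown, and per the series its genetic background resembled the mutants' background. The other groups served as context: C17 (3 arrays), a null mutant of the receptor gene moody, and the Canton S wild-type sets WT_new (3 arrays) and WT_old (5 arrays). WT_new was processed on another day than the mutants, and the labels do not give the day of UAS_control or of WT_old. Each genotype was a single line, flies were kept cool or at room temperature with no statement of which group was kept how, and no age is given. Nothing in the labels says whether replicate arrays came from separate cultures. The p-values thus cover array-to-array spread, which may be technical, and 3 arrays a group limit the precision.

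The blood-brain barrier of the fly is formed by surface glia, an outer perineurial layer and an inner subperineurial layer that covers the whole brain. Subperineurial glia are joined by septate junctions, ladder-like contacts built from claudins, adhesion molecules and Ly6 proteins that stop solutes from passing between cells. The second line of the barrier is active: Mdr65, an ABC transporter of the same family as mammalian P-glycoprotein, pumps foreign compounds back out of the subperineurial glia. The G protein-coupled receptor moody acts in the same cells and keeps their junctions tight.

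The arrays carried brain RNA in both groups, but the UAS_control arrays also carried RNA of other tissues. The mean log2 signal of 27 neuronal genes was 11.19 to 11.23 on the PMdr65 arrays and 11.05 to 11.13 on the UAS_control arrays, and that of 18 glial genes was 10.36 to 10.40 in PMdr65 and 10.28 to 10.41 in UAS_control. For 26 phototransduction genes of the eye it was 6.87 to 7.11 in PMdr65 and 8.42 to 9.16 in UAS_control. For 22 muscle genes it was 5.86 to 6.25 in PMdr65, against 6.86, 7.13 and 8.94 in UAS_control, with array 2 the highest. The arrays of PMdr65 correlated with each other at 0.9959 to 0.9964 over all probe sets, those of UAS_control at 0.9742 to 0.9873, and array medians spanned 7.878 to 7.959 and 7.861 to 7.971 in PMdr65 and UAS_control. A gene was therefore set apart if it was in a list of another tissue, or if its deviations within C17, WT_new and WT_old, 11 arrays that are in neither group, correlated at 0.8 or more with those of the eye or the muscle list. This set 520 genes apart and left 8418, called brain genes below by this rule alone. For eye genes the rule rests mainly on WT_new array 3, whose eye genes lay 1.34 above their group mean. The other 2 WT_new arrays were at -0.83 and -0.51 and the other 8 arrays within 0.08. Muscle genes deviated by only -0.31 to 0.4 over the 11 arrays, and 51 genes moved with them. Muscle genes outside the list may thus remain among the brain genes.

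Mdr65 transcript was low in the null brains, though above the lowest signals of the arrays. Its log2 signal was 4.71, 4.72 and 4.65 on the PMdr65 arrays and 10.96, 10.61 and 10.77 on the UAS_control arrays. The groups were far apart, and the PMdr65 arrays also lay below all 14 other arrays of the series. The difference was -6.09 ± 0.18 on the log2 scale (SE, limma, adjusted p = 8.08e-12), or 68.2-fold at the array signal. An exact two-sided permutation test of the 6 arrays gave p = 0.1, the smallest value that 20 splits allow. The moody transcript in its own null, C17, was lower still, at 2.3, 2.1 and 2.12. Whether the remaining Mdr65 signal was background or transcript was not tested, and background would understate the fold. A probe outside a deleted stretch would not report the lesion, and the position of the lesion is not stated in the labels.

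The moody transcript was higher in the Mdr65 null brains. It stood at 11.35, 11.42 and 11.41 in PMdr65 and at 10.04, 10.10 and 9.94 in UAS_control. All PMdr65 arrays were above all other arrays of the series. The rise was 1.37 ± 0.10 on the log2 scale (limma, adjusted p = 3.26e-07), or 2.58-fold. Of the 5 measured genes of moody signalling, 4 were called higher and 0 lower, where 41.1% of all genes were called in either direction, 21.1% higher and 20.0% lower. The G protein subunit genes Galphai and Galphao were higher by 0.40 and 0.22 (limma, adjusted p = 0.0118 and 0.0031) and pins, a regulator that binds Galphai, by 0.40 (limma, adjusted p = 0.00651). The RGS protein gene loco, which ends G protein signals, had a change of -0.09 (limma, adjusted p = 0.509). The call of Galphai was lost without PMdr65 array 3 or without UAS_control array 3, with a highest adjusted p of 0.0576 (limma). In a fit of the 6 arrays alone neither it nor pins was called.

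**Figure D1:**
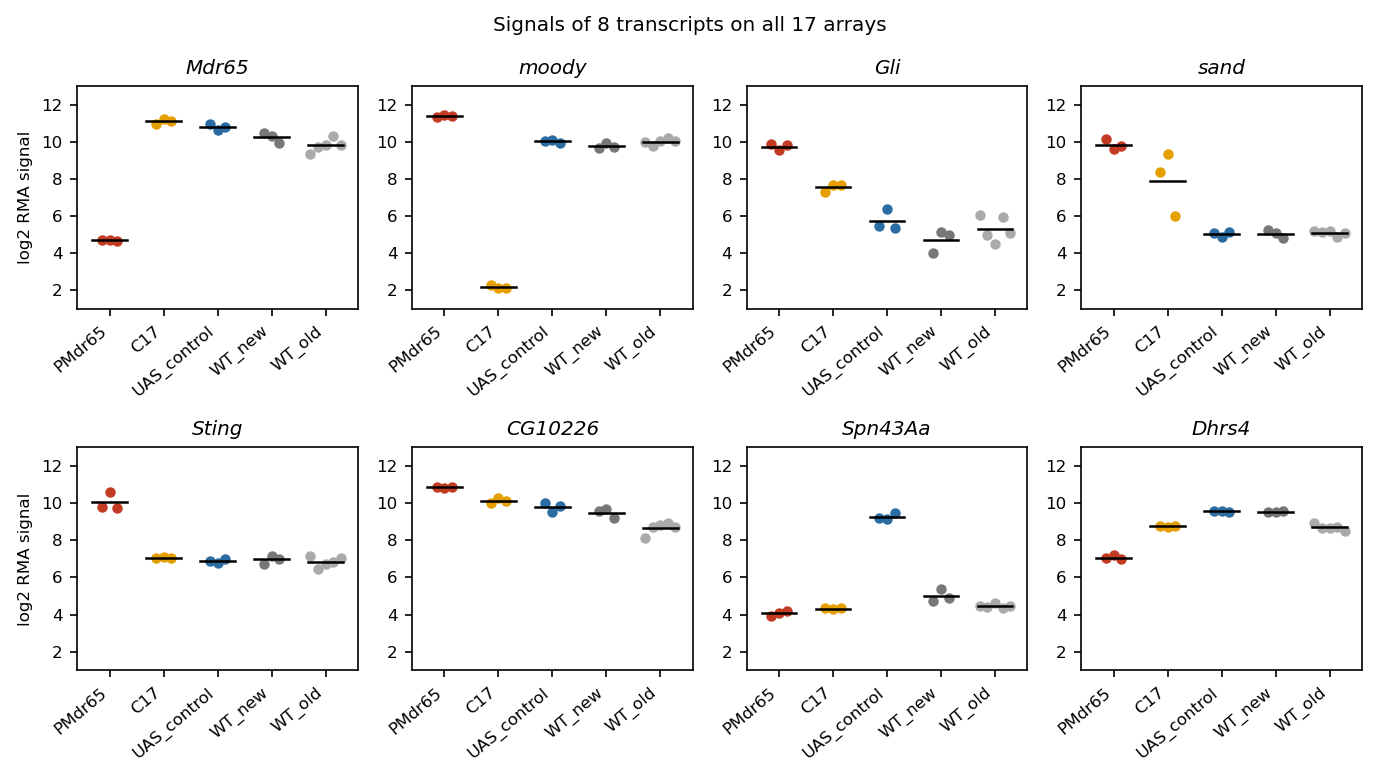
Log2 RMA signals (vertical axis) of 8 transcripts on all 17 arrays, by group (horizontal axis), 1 point an array and a line at the group mean. Mdr65 is near 4.7 only in PMdr65, moody, Gli, sand, Sting and CG10226 are highest in PMdr65, Spn43Aa is high only in UAS_control, and Dhrs4 is lowest in PMdr65.

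The genes beside Mdr65 on chromosome arm 3L are inherited with the null allele. Among the 10 measured genes nearest to Mdr65, 5 on each side in the order of the Release 6 annotation, 4 were called, against 41.1% of all genes. The gene next to it, CG10226, encodes another ABC transporter of the P-glycoprotein family. Its signal was 10.86, 10.83 and 10.89 in PMdr65, against 10.01, 9.51 and 9.84 in UAS_control, a rise of 1.07 ± 0.18 (limma, adjusted p = 0.000405). The PMdr65 arrays were above all others in the series, and the level in PMdr65 also exceeded that in the moody null by 0.73 (limma, adjusted p = 0.0236), in a contrast that called 6.95% of all genes. CG13299 fell by 0.61 (limma, adjusted p = 0.00543) and CG13300 was higher by 0.27 (limma, adjusted p = 0.00656). CG8219 was higher by 0.42 (limma, adjusted p = 0.0391), a call lost without PMdr65 array 1 or 3 or UAS_control array 2, with adjusted p up to 0.179. The other 6 neighbours, among them the laminin gene LanA and the odorant receptor genes Or65a, Or65b and Or65c, were not called. Whether these changes belong to the null allele or to other variants of the line cannot be told apart in 1 line.

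Across all genes 1885 were called higher and 1789 lower in PMdr65, 41.1% of 8938, and of the 13290 probe sets 3063 were called higher and 2199 lower, 39.6%. Of the 8418 brain genes 1845 were higher and 1531 lower (40.1% called), and in the 520 genes set apart 40 were higher and 258 lower. Most differences were small: 69 brain genes were higher and 140 lower by 2-fold or more. In 95 brain genes UAS_control array 2 stood at least 1 log2 unit above both other UAS_control arrays, and 51 of these were called lower, 47 of them by 2-fold or more, so part of the large losses among brain genes moved with that array. With these genes set apart too, 1845 brain genes were higher and 1480 lower. Array-level spread was larger in UAS_control, where 510 genes had a range of 1 or more over the 3 arrays, than in PMdr65, where 51 had.

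**Figure D2:**
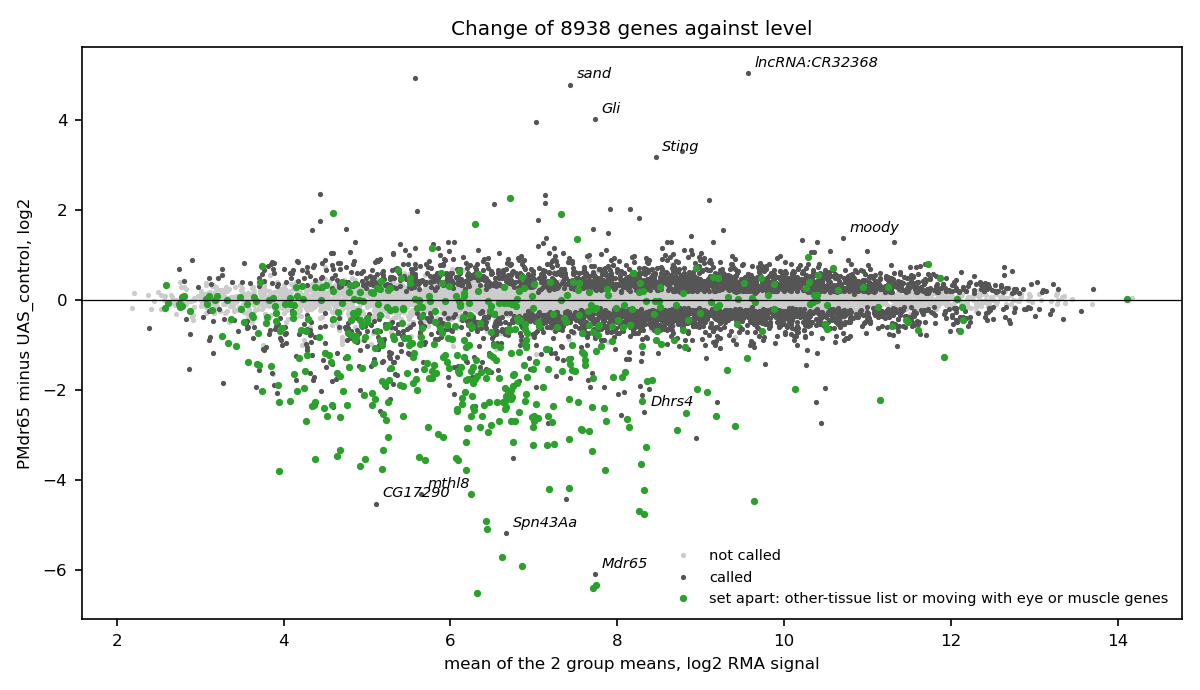
Difference between PMdr65 and UAS_control (vertical axis, log2) against the mean of both group means (horizontal axis, log2 RMA signal) for 8938 genes. Genes set apart as eye, muscle or other-tissue genes (green) lie mostly below 0, and the named brain genes stand clear of the band of small changes around 0.

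The other arrays show which group stood apart. The 3 PMdr65 arrays lay beyond all 14 others for 546 genes (6.11% of all), of which 298 were called higher and 165 lower. The 3 UAS_control arrays lay beyond all 14 others for 604 genes (6.76%), of which 252 were called higher and 269 lower in PMdr65. For 1453 genes (16.3%) PMdr65, C17 and WT_old all lay on one side of UAS_control and WT_new, and 725 of these were called higher and 655 lower. In this last set PMdr65 differed from UAS_control with the same split as the mutants from WT_new, the wild type of another day. The split also parts WT_new from WT_old, which are both Canton S, and the day of WT_old is not given. Genotype, background and day of processing cannot be told apart for this set. 

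Most septate junction genes were higher in PMdr65. Of 23 measured members 15 were called higher and 2 lower, against 21.1% and 20.0% of all genes, with a median change of 0.53 against 0.0095 over all genes. For 11 members the PMdr65 arrays lay above all 14 other arrays, where 6.11% of all genes lay beyond them in either direction, and 4 members had the split shared with WT_old. The list mean was 9.35 to 9.41 on the PMdr65 arrays, 8.99 to 9.09 in C17, 8.72 to 8.97 in UAS_control, 8.58 to 8.65 in WT_new and 8.72 to 8.92 in WT_old. In whole brains fewer cells of a type and less RNA per cell cannot be told apart, and the same holds for more. The count of 15 became 14 without UAS_control array 2, 14 in a fit of the 6 arrays and 13 with the replicate number as a block.

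Gliotactin (Gli), a neuroligin-like protein of the corners where 3 cells meet, had the largest change of the list. Its signal was 9.85, 9.57 and 9.80 in PMdr65 and 5.44, 6.36 and 5.37 in UAS_control. The rise was 4.02 ± 0.38 (limma, adjusted p = 3.87e-06), or 16.2-fold, and no UAS_control array came within 3 log2 units of PMdr65. C17 lay between, at a mean of 7.54, and PMdr65 exceeded it by 2.20 (limma, adjusted p = 0.00175). Of the other proteins of these cell corners, bark beetle (bark) had a change of 0.58 that was not called (limma, adjusted p = 0.0653) and M6 was higher by 0.24 (limma, adjusted p = 0.0316).

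Adhesion molecules and claudins of the junction were also higher. Lachesin (Lac), an immunoglobulin-domain protein, was at 10.86, 10.87 and 10.95 in PMdr65, against 9.68, 10.21 and 9.59 in UAS_control, a rise of 1.07 ± 0.15 (limma, adjusted p = 0.000106). Contactin (Cont) was at 9.54, 9.54 and 9.44 in PMdr65 and at 8.49, 8.59 and 8.65 in UAS_control, a rise of 0.93 ± 0.10 (limma, adjusted p = 1.2e-05). In both genes the groups did not overlap, as for 51.0% of all genes. The claudins pck, sinu and kune were higher by 0.95, 0.70 and 0.60, with adjusted p of 2.02e-05, 1.31e-05 and 0.000161 (limma). The cell adhesion molecules Nrg and Nrx-IV were higher by 0.50 and 0.40 (limma, adjusted p = 5.95e-05 and 0.000808). Of the other Nrg probe sets, 1 was higher by 0.77 (limma, adjusted p = 5.88e-05) and 1 had a change of -0.09 that was not called. The melanotransferrin gene Tsf2 was higher by 0.92 (limma, adjusted p = 0.00119), and its UAS_control array 1, at 7.60, was lower than the other UAS_control arrays at 8.31 and 8.35.

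The Ly6 proteins, small membrane-anchored proteins needed to assemble the junction, moved both ways. The genes cold, crok and crim were higher by 0.91, 0.74 and 0.65 (limma, adjusted p = 4.62e-06, 0.000466 and 1.2e-05). Boudin (bou), another Ly6 gene, stood at 7.34, 7.30 and 7.43 in PMdr65 and 8.50, 8.35 and 7.90 in UAS_control and fell by 0.89 (limma, adjusted p = 4.44e-05). Here the UAS_control arrays were above all others in the series, so the control stood apart and not the mutant.

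Among the cytoplasmic and polarity members, the FERM protein gene cora was at 12.07, 12.03 and 12.12 in PMdr65 and 11.50, 11.52 and 11.62 in UAS_control, a rise of 0.53 ± 0.07 (limma, adjusted p = 3.18e-05). The gene dlg1 was higher by 0.16 (limma, adjusted p = 0.0201). Another dlg1 probe set was higher by 0.3 (limma, adjusted p = 0.0431), and the remaining ones were at 0.15 and -0.07 and not called. The scaffold genes vari, scrib, l(2)gl and yrt had changes of 0.17, 0.11, 0.07 and 0.05 that were not called, although other scrib probe sets were higher by 0.82 and 0.36 (limma, adjusted p = 1.68e-05 and 0.000486). Of the sodium pump subunits, nrv2 had a change of 0.22 that was not called, and nrv1 fell by 1.08 (limma, adjusted p = 0.035) as a gene set apart, with UAS_control array 2 at 8.66 against 6.73 and 7.65 on the other 2. In 5 genes of the list, Gli, Lac, kune, Nrg and Nrx-IV, PMdr65 was also above the moody null (limma, adjusted p = 0.00175, 0.011, 0.0227, 0.000205 and 0.00712).

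**Figure D3:**
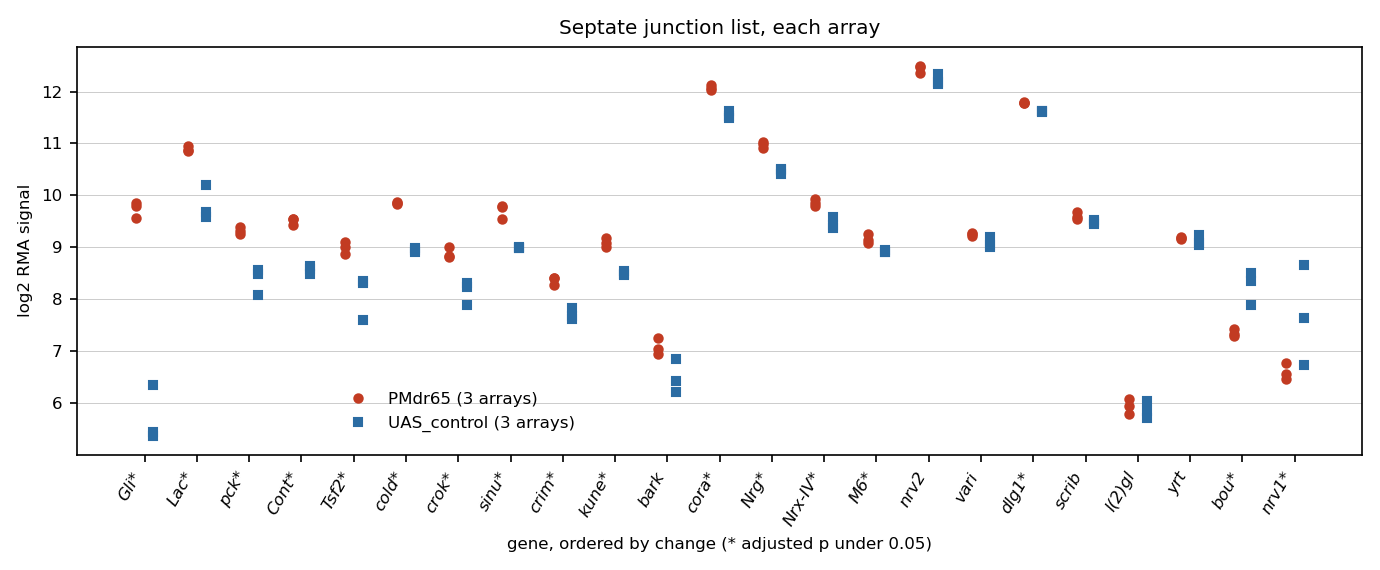
Log2 RMA signal (vertical axis) of the 23 septate junction genes (horizontal axis, ordered by change) on each of the 3 PMdr65 arrays (circles, left) and 3 UAS_control arrays (squares, right), with an asterisk for adjusted p under 0.05. PMdr65 lies above UAS_control without overlap in the 15 genes called higher and below it in bou, while nrv1 spans 6.73 to 8.66 in UAS_control.

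The surface glia list had 9 of 17 measured genes called higher and 2 lower, with a median change of 0.30, but Gli, Lac, moody, Mdr65 and CG10226 are on it. Of its other 12 genes 5 were higher and 1 lower, with a median of 0.15, where 21.1% and 20.0% of all genes were called. For 8 of the 17, among them Mdr65, moody, Gli and CG10226, the PMdr65 arrays lay beyond all 14 others. Over all genes this share was 6.11%, in either direction. The transcript of ltl, a secreted leucine-rich repeat protein, was at 10.22, 10.15 and 10.30 in PMdr65 and 9.40, 9.48 and 9.35 in UAS_control, a rise of 0.81 ± 0.11 (limma, adjusted p = 8.34e-05). The ligand gene jeb and the phosphatase gene PRL-1 were higher by 0.58 and 0.48 (limma, adjusted p = 5.45e-06 and 0.000168), both with the split shared with WT_old. The lipophorin receptor genes LpR1 and LpR2 were higher by 0.30 and 0.40 (limma, adjusted p = 0.000844 and 0.0271), and another LpR1 probe set had a change of 0.18 that was not called. The organic anion transporter gene Oatp58Dc fell by 0.35 (limma, adjusted p = 0.00839), a call that the fit of the 6 arrays did not make.

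In the basement membrane, the matrix sheath outside the glia, 1 of 16 measured genes was called higher and 5 lower, 37.5% in all against 41.1% of all genes, with a median of -0.32. The median was 0.04 against WT_new, 0.28 against WT_old and 0.21 against C17, so the direction of the list turned with the group compared. The perlecan gene trol was at 10.41, 10.31 and 10.32 in PMdr65 and 11.32, 11.16 and 11.09 in UAS_control and fell by 0.85 ± 0.10 (limma, adjusted p = 2.11e-05). Of 5 other trol probe sets 3 fell and 2 had changes of 0.02 and 0.00 that were not called. The collagen IV gene Col4a1 fell by 0.78, SPARC by 0.58, the glypican gene dlp by 0.27 and the peroxidasin gene Pxn, which is set apart, by 0.64 (limma, adjusted p = 0.00245, 0.00123, 0.0231 and 0.000295). Another Pxn probe set had a change of -0.09 that was not called. Trol, Col4a1 and SPARC had the split shared with WT_old. The metalloproteinase gene Mmp2 was higher by 0.24 (limma, adjusted p = 0.0354). Another, dimmer Mmp2 probe set was higher by 1.62 (limma, adjusted p = 1.06e-05), at means of 5.57 in PMdr65 and 3.95 in UAS_control.

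Other glial genes were mixed, with 5 of 18 called higher and 3 lower, 44.4% in all against 41.1% of all genes. The glial secreted factor gene ana was at 10.52, 10.61 and 10.63 in PMdr65 and 9.76, 9.81 and 9.84 in UAS_control, a rise of 0.78 ± 0.13 (limma, adjusted p = 0.000344). The engulfment receptor gene drpr, the adhesion gene wrapper, axo and the glial transcription factor gene repo were higher by 0.34 to 0.48. Other axo probe sets were higher by 0.73 and 0.32 (limma, adjusted p = 1.74e-05 and 0.0103), and 1 was at 0.05 and not called. Ebony (e), which conjugates histamine and dopamine in glia, fell by 0.66, the P450 gene Cyp4g15 by 0.54 and wun2 by 0.36 (limma, adjusted p = 0.000155, 0.000295 and 0.00483), e and Cyp4g15 with the split shared with WT_old. The astrocyte and cortex glia genes alrm and Gs2 were not called.

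Outside the junction, large gains among brain genes included a noncoding RNA, a potassium channel and an immune sensor. The long noncoding RNA lncRNA:CR32368 was at 11.93, 12.42 and 11.93 in PMdr65 and 7.03, 6.94 and 7.15 in UAS_control, a rise of 5.05 ± 0.43 (limma, adjusted p = 1.28e-06). All 14 other arrays were below PMdr65, and the excess over C17 was 4.17 (limma, adjusted p = 1.13e-05). The potassium leak channel gene sand, known for its role in sleep-promoting neurons, was at 10.14, 9.59 and 9.75 in PMdr65 and 5.09, 4.88 and 5.14 in UAS_control. It rose by 4.79 ± 0.53 (limma, adjusted p = 1.21e-05), or 27.6-fold. In C17 it stood at a mean of 7.90 with a wide range, and PMdr65 exceeded it by 1.92 (limma, adjusted p = 0.0377). Sting, the sensor of cyclic dinucleotides in antiviral and antibacterial defence, was at 9.80, 10.61 and 9.75 in PMdr65 and 6.88, 6.76 and 6.98 in UAS_control, a rise of 3.18 ± 0.20 (limma, adjusted p = 8.83e-08). The means of C17, WT_new and WT_old were between 6.84 and 7.06, so the gain of Sting set PMdr65 apart from every other group.

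Other gains, some of them larger than that of Sting, differed in which group they set apart. CG33483 was at 8.29, 7.65 and 8.15 in PMdr65 and 2.92, 2.63 and 3.77 in UAS_control, with C17, WT_new and WT_old means of 5.48, 6.09 and 6.36 between them. CG6602 was at 8.86, 9.08 and 9.07 in PMdr65 and 4.95, 5.04 and 5.18 in UAS_control, a rise of 3.95 ± 0.14 (limma, adjusted p = 4.78e-11). C17 stood at 8.53 and was not told from PMdr65 by the fit (difference 0.47, limma, adjusted p = 0.0574). The P450 gene Cyp9h1 rose by 2.34 ± 0.19, at 8.29, 8.55 and 8.06 in PMdr65 and 6.23, 5.71 and 5.94 in UAS_control (limma, adjusted p = 1.05e-06). The phosphate transporter family gene NaPi-T rose by 2.13 ± 0.15 (limma, adjusted p = 2.52e-07), with means of 3.38 to 3.65 in C17, WT_new and WT_old below both groups compared. The gene of the neuropeptide eclosion hormone (Eh) was at 10.29, 10.48 and 10.53 in PMdr65 and 8.02, 8.10 and 5.23 in UAS_control. Its rise of 3.32 ± 1.12 (limma, adjusted p = 0.0286) lost its call without any 1 of the PMdr65 arrays or without UAS_control array 3 (highest adjusted p = 0.124).

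For Map205, GILT3, CG15548 and Gfat1 the UAS_control arrays were below all 14 others. The microtubule-associated protein gene Map205 was at 10.35, 10.18 and 10.10 in PMdr65 and 7.87, 8.19 and 7.87 in UAS_control, with WT_new at a mean of 9.06 and C17 and WT_old at 10.10 and 9.91. GILT3, a lysosomal thiol reductase family gene, was at 8.33, 8.31 and 7.99 in PMdr65 and 5.68, 6.28 and 6.19 in UAS_control, and WT_new and WT_old were higher still at 9.89 and 9.17. CG15548 rose by 2.36 ± 0.23 (limma, adjusted p = 4.62e-06). Gfat1, which starts the hexosamine pathway, and flip rose by 2.02 each (limma, adjusted p = 2.1e-06 and 2.75e-06), and C17 was at means of 9.08 and 9.53, close to PMdr65. A second Gfat1 probe set had a change of 0.10 that was not called. CG30187 rose by 1.99 ± 0.22 (limma, adjusted p = 1.49e-05), with PMdr65 above all 14 other arrays.

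Among brain genes that fell, the largest losses after Mdr65 were of transcripts that stood high in UAS_control. The serine protease inhibitor gene Spn43Aa was at 3.93, 4.10 and 4.20 in PMdr65 and 9.19, 9.13 and 9.46 in UAS_control and fell by 5.19 ± 0.13 (limma, adjusted p = 1.36e-12). CG17290 was at 3.0, 2.68 and 2.85 in PMdr65 and 7.26, 7.40 and 7.48 in UAS_control, a fall of 4.53 ± 0.12 (limma, adjusted p = 1.36e-12). The means of C17, WT_new and WT_old were 4.33 to 4.99 for Spn43Aa and 2.76 to 3.0 for CG17290, so UAS_control stood apart for both, although PMdr65 was also the lowest group for Spn43Aa. The methuselah-like receptor gene mthl8 was at 3.66, 3.43 and 3.39 in PMdr65 and 7.34, 8.13 and 7.97 in UAS_control and fell by 4.32 ± 0.17 (limma, adjusted p = 1.34e-10), with a second probe set at -4.45. It was high in C17, at a mean of 9.09, and low in WT_new and WT_old, at 3.87 and 3.32.

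Dhrs4 and CG10550 were large losses in which PMdr65 lay below all other arrays. Dhrs4, a short-chain dehydrogenase/reductase gene, was at 7.05, 7.19 and 6.98 in PMdr65 and 9.58, 9.60 and 9.52 in UAS_control. It fell by 2.49 ± 0.08 (limma, adjusted p = 2.53e-11), was below all 14 other arrays and was 1.69 below C17 (limma, adjusted p = 2.32e-09). CG10550 was at 6.79, 6.69 and 6.84 in PMdr65 and 9.62, 9.25 and 9.09 in UAS_control, a fall of 2.55 ± 0.12 (limma, adjusted p = 1.41e-09), and here PMdr65 was the lowest and UAS_control the highest group. Both genes also had the split shared with WT_old. Ssu72, a phosphatase gene of RNA polymerase II, was at 3.73, 3.95 and 4.04 in PMdr65 and 5.77, 6.18 and 5.78 in UAS_control, a fall of 2.0 ± 0.13 (limma, adjusted p = 8.83e-08). The C17, WT_new and WT_old means of 7.10 to 7.50 were above both, and its second probe set fell by 2.24.

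Further large losses of genes that the rule left among the brain genes were highest on UAS_control array 2. For CG9297, CG13315, BomS2, CG10680, CG16926 and Nplp2 the correlation with the eye list was 0.72 to 0.76, just under the limit of 0.8. For Cpr62Bb, CG2233 and Cpr47Ee it was 0.62, 0.6 and 0.37. The part of other tissues in these losses was not tested. The Bomanin gene BomS2, an immune-induced peptide of the fat body, was at 7.54, 7.79 and 6.92 in PMdr65 and 9.43, 11.54 and 10.45 in UAS_control and fell by 3.06 ± 0.67 (limma, adjusted p = 0.00256). The cuticle protein gene Cpr47Ee was at 3.59, 3.19 and 3.40 in PMdr65 and 4.50, 7.85 and 5.0 in UAS_control, a fall of 2.39 (limma, adjusted p = 0.00449) that was 1.36 without UAS_control array 2. CG9297, Nplp2, CG10680, Cpr62Bb, CG2233 and CG13315 fell by 2.28 to 3.51, each with UAS_control array 2 the highest of the 6 arrays. CG16926 fell by 2.46 (limma, adjusted p = 0.0406), with 9.17 on UAS_control array 2 and 4.80 and 5.19 on the other 2. Without that array its change was -1.07 and not called (limma, adjusted p = 0.193), and it was not called without any 1 of the PMdr65 arrays either.

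Detoxification genes, which in the fly include cytochrome P450 enzymes and the conjugating enzymes and pumps that act after them, showed no common direction. Of 60 measured P450 genes 11 were higher and 19 lower, a share called above the 41.1% of all genes. Their median was -0.16, and 13 of the 19 were brain genes. Cyp6a2, a P450 known from insecticide resistance, was at 6.89, 7.11 and 7.19 in PMdr65 and 8.93, 9.42 and 8.99 in UAS_control and fell by 2.05 ± 0.16 (limma, adjusted p = 5.51e-07). PMdr65 was the lowest and UAS_control the highest group for it, and PMdr65 was 0.88 below C17 (limma, adjusted p = 0.00205). Cyp6a20, known for its effect on aggression, was at 7.63, 7.18 and 7.37 in PMdr65 and 9.36, 9.47 and 9.27 in UAS_control, a fall of 1.97 ± 0.14 (limma, adjusted p = 2.61e-07) with UAS_control above all other arrays. Beside Cyp9h1, Cyp6a13 was higher by 1.05 (limma, adjusted p = 5.07e-06) and Cyp6d4 by 0.89 (limma, adjusted p = 8.85e-05). Of the 6 arrays, UAS_control array 2 was highest for Cyp4e2, Cyp6g1, Cyp6d5 and Cyp6a8, which fell by 2.70, 2.59, 1.79 and 1.46.

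UDP-glycosyltransferases, which attach sugars to small lipophilic molecules, were lower in 7 of 20 cases and higher in 1. Their share called was just under the 41.1% of all genes. Ugt35B1 was at 9.43, 9.47 and 9.66 in PMdr65 and 11.71, 11.42 and 11.27 in UAS_control and fell by 1.95 ± 0.12 (limma, adjusted p = 3.96e-08), below all 14 other arrays and with the split shared with WT_old. Ugt35A1 was at 5.19, 4.80 and 5.12 in PMdr65 and 7.04, 7.08 and 6.68 in UAS_control, a fall of 1.89 ± 0.14 (limma, adjusted p = 4.25e-07), with UAS_control above all other arrays. Ugt301D1 fell by 0.96 (limma, adjusted p = 4.54e-05), and Ugt316A1 was higher by 0.88 (limma, adjusted p = 6.72e-06). Glutathione transferases were higher in 4 of 25 cases and lower in 4, a share called under the 41.1% of all genes. GstS1 was at 9.30, 9.25 and 9.18 in PMdr65 and 7.94, 7.97 and 7.98 in UAS_control, a rise of 1.28 ± 0.12 (limma, adjusted p = 2.56e-06), and 0.72 above C17. GstD9 fell by 0.72 (limma, adjusted p = 0.000236).

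Of 36 ABC transporters 7 were higher and 7 lower, Mdr65 and CG10226 included, so the family as a whole stayed near the background of 41.1%. Mdr49, the paralog with a role in germ cell migration, was at 8.52, 8.25 and 8.34 in PMdr65 and 9.69, 8.77 and 9.30 in UAS_control and fell by 0.88 (limma, adjusted p = 0.0152), with the split shared with WT_old. Abca3 was higher by 0.42, and CG9330 and Hmt-1 fell by 0.53 and 0.40 (limma, adjusted p = 0.000275, 0.000962 and 0.00374), also with that split. The multidrug resistance gene MRP had a change of 0.17 that was not called (limma, adjusted p = 0.0659). Of 14 organic ion transporters 4 were higher and 3 lower, a share called above the 41.1% of all genes. The transporter gene CG14855 was at 7.60, 7.61 and 7.74 in PMdr65 and 6.83, 6.83 and 6.70 in UAS_control, a rise of 0.86 ± 0.09 (limma, adjusted p = 5.59e-06), above all 14 other arrays, while Orct fell by 0.58 (limma, adjusted p = 0.000844).

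Neuronal genes differed little in size and more often upward. Of 27 measured neuronal genes 10 were higher and 2 lower, 44.4% in all against 41.1% of all genes, with a median of 0.13. Of the 10, 6 had the split shared with WT_old. Synapsin (Syn), a synaptic vesicle protein, was at 11.25, 11.33 and 10.99 in PMdr65 and 10.60, 10.40 and 10.56 in UAS_control, a rise of 0.67 ± 0.10 (limma, adjusted p = 0.00016). The acetylcholine receptor subunit gene nAChRalpha5, the calcium channel gene cac and the active zone gene Rim were higher by 0.56, 0.36 and 0.29 (limma, adjusted p = 3.61e-05, 0.000561 and 0.000557), while the other 2 Rim probe sets had changes of 0.15 and -0.06 that were not called. The synaptic genes nSyb, brp and Gad1 had changes of -0.01, 0.00 and 0.13 that were not called, and another brp probe set fell by 0.28 (limma, adjusted p = 0.00258). With the replicate number as a block 3 of the 10 were called.

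Among 18 synaptic adhesion genes 8 were higher and 1 lower, a share called above the 41.1% of all genes. Dscam1, a neuronal recognition molecule with many splice forms, was at 11.19, 11.05 and 11.07 in PMdr65 and 10.66, 10.47 and 10.48 in UAS_control, a rise of 0.57 ± 0.07 (limma, adjusted p = 1.79e-05), and a second probe set had a change of 0.31 that was not called (limma, adjusted p = 0.0758). The receptor phosphatase gene Lar was higher by 0.43 and caps by 0.38 (limma, adjusted p = 0.000486 and 0.00352), with the other 2 caps probe sets at 0.13 and -0.20 and not called. Neurexin 1 (Nrx-1) fell by 0.25 (limma, adjusted p = 0.0132). Of 28 transmitter receptor genes 8 were higher and 5 lower, 46.4% in all. The lower ones were the GABA receptor gene Rdl and the acetylcholine receptor subunit genes nAChRalpha1, nAChRalpha2, nAChRalpha3 and nAChRbeta2, at -0.23 to -0.41. Another nAChRalpha1 probe set was higher by 0.51 (limma, adjusted p = 0.000259), so the direction of that gene depends on the probe set. The metabotropic glutamate receptor gene mGluR was higher by 0.48 (limma, adjusted p = 1.49e-05).

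Potassium channel genes were higher in 8 of 21 cases and lower in 3, 52.4% in all against 41.1% of all genes. After sand, the leak channel gene Ork1 was at 8.49, 8.61 and 8.86 in PMdr65 and 7.86, 8.01 and 8.11 in UAS_control, a rise of 0.66 ± 0.12 (limma, adjusted p = 0.000514), above all 14 other arrays. The Shaker regulator gene qvr (sleepless) was higher by 0.21 (limma, adjusted p = 0.00618), also above all 14 others. The voltage-gated channel genes Shab and eag fell by 0.32 and 0.30 (limma, adjusted p = 0.00746 and 0.00223), and another Shab probe set had a change of 0.05 that was not called.

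Neuropeptide genes were higher in 9 of 31 cases and lower in 3, 38.7% in all against 41.1% of all genes. Besides Eh, the insulin-like peptide gene Ilp5 was at 13, 12.85 and 13.15 in PMdr65 and 12.33, 12.34 and 12.14 in UAS_control, a rise of 0.73 ± 0.15 (limma, adjusted p = 0.0014), with PMdr65 above all 14 other arrays, while Ilp2 had a change of 0.10 that was not called. Nplp1 was higher by 0.79 and sNPF by 0.56 (limma, adjusted p = 3.59e-06 and 4.17e-05), both with the split shared with WT_old, as were 4 of the other 7. Mip fell by 0.38 (limma, adjusted p = 0.0109). Nplp3, set apart because it moved with the eye genes, was at 3.23, 4.82 and 5.46 in PMdr65 and 9.93, 11.82 and 10.99 in UAS_control, a fall of 6.41 (limma, adjusted p = 6.74e-05). The adipokinetic hormone gene Akh, made in the corpora cardiaca outside the brain, was set apart, with 11.13 on UAS_control array 2 against 7.54 and 8.40 on the other UAS_control arrays and 5.77, 5.76 and 6.85 in PMdr65.

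Clock genes, which run the daily feedback loop, were higher in 4 of 12 cases and lower in 1. Their share called was 41.7%, against 41.1% of all genes. Cryptochrome (cry), the blue light receptor of clock neurons, was at 8.05, 8.10 and 8.17 in PMdr65 and 9.19, 9.04 and 9.0 in UAS_control and fell by 0.97 ± 0.09 (limma, adjusted p = 2.37e-06), with UAS_control above all other arrays and the split shared with WT_old. Timeless (tim), which is set apart because it moved with the eye genes, was at 10.80, 10.75 and 10.78 in PMdr65 and 9.71, 9.96 and 9.76 in UAS_control, a rise of 0.96 ± 0.10 (limma, adjusted p = 9.49e-06). The repressor gene cwo, the activator gene Pdp1 and the kinase gene dco were higher by 0.52, 0.42 and 0.26, and per, Clk and vri were not called. A second cwo probe set had a change of -0.02 that was not called. The labels give no hour of dissection, so time of day cannot be told apart from genotype here.

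Energy and translation genes fell by small amounts in large numbers, with the split shared with WT_old in most of them. Of 61 measured genes of oxidative phosphorylation, the mitochondrial chain that makes ATP, 44 were lower and 4 higher, with a median of -0.36. Their share called was 78.7%, against 41.1% of all genes. Of the 44, 41 had the split shared with WT_old. The complex I subunit gene ND-B14.7 was at 10.16, 10.27 and 10.37 in PMdr65 and 11.13, 11.21 and 11.16 in UAS_control and fell by 0.90 ± 0.07 (limma, adjusted p = 9.76e-07). The list mean was 10.47 to 10.57 in PMdr65, 10.47 to 10.52 in C17, 10.78 to 10.85 in UAS_control, 10.74 to 10.85 in WT_new and 10.30 to 10.46 in WT_old. The median of the list was -0.35 for PMdr65 against WT_new and 0.12 against WT_old, comparisons that share the PMdr65 arrays with this one. The direction of this difference thus turned with the control group. The complex III subunit gene UQCR-11 was an exception, at 9.78, 9.72 and 9.89 in PMdr65 and 8.29, 8.64 and 8.58 in UAS_control, a rise of 1.30 ± 0.11 (limma, adjusted p = 1.33e-06).

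Genes of the cytosolic ribosome were lower in 23 of 36 cases and higher in 0, 63.9% in all against 41.1% of all genes. Their median was -0.23, and 19 of the 23 had the split shared with WT_old. Of the 23, 21 were brain genes. RpL17, set apart because it moved with the eye genes, fell by 0.66 and RpL10Ab by 0.58 (limma, adjusted p = 5.87e-06 and 9.37e-06). The list mean was 11.49 to 11.52 in PMdr65, 11.46 to 11.52 in C17, 11.69 to 11.82 in UAS_control, 11.68 to 11.73 in WT_new and 11.52 to 11.55 in WT_old. The median change was 0.02 against WT_old. With the replicate number as a block 11 of these genes were called lower, and 14 genes of the mitochondrial ribosome. Mitochondrial ribosome genes were lower in 33 of 69 cases, 18 of them with that split, and proteasome and chaperonin genes in 11 of 37, 8 of them with it. In either direction 50.7% and 32.4% of these lists were called. The largest falls in them were mRpL44 at -0.86 and Rpn8 at -0.46 (limma, adjusted p = 2.08e-05 and 4.46e-05). By contrast the septate junction median was 0.61 against WT_new and 0.44 against WT_old, and the surface glia median 0.56 and 0.66. Against C17 these medians were smaller, at 0.2 and 0.05. All these comparisons share the PMdr65 arrays.

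**Figure D4:**
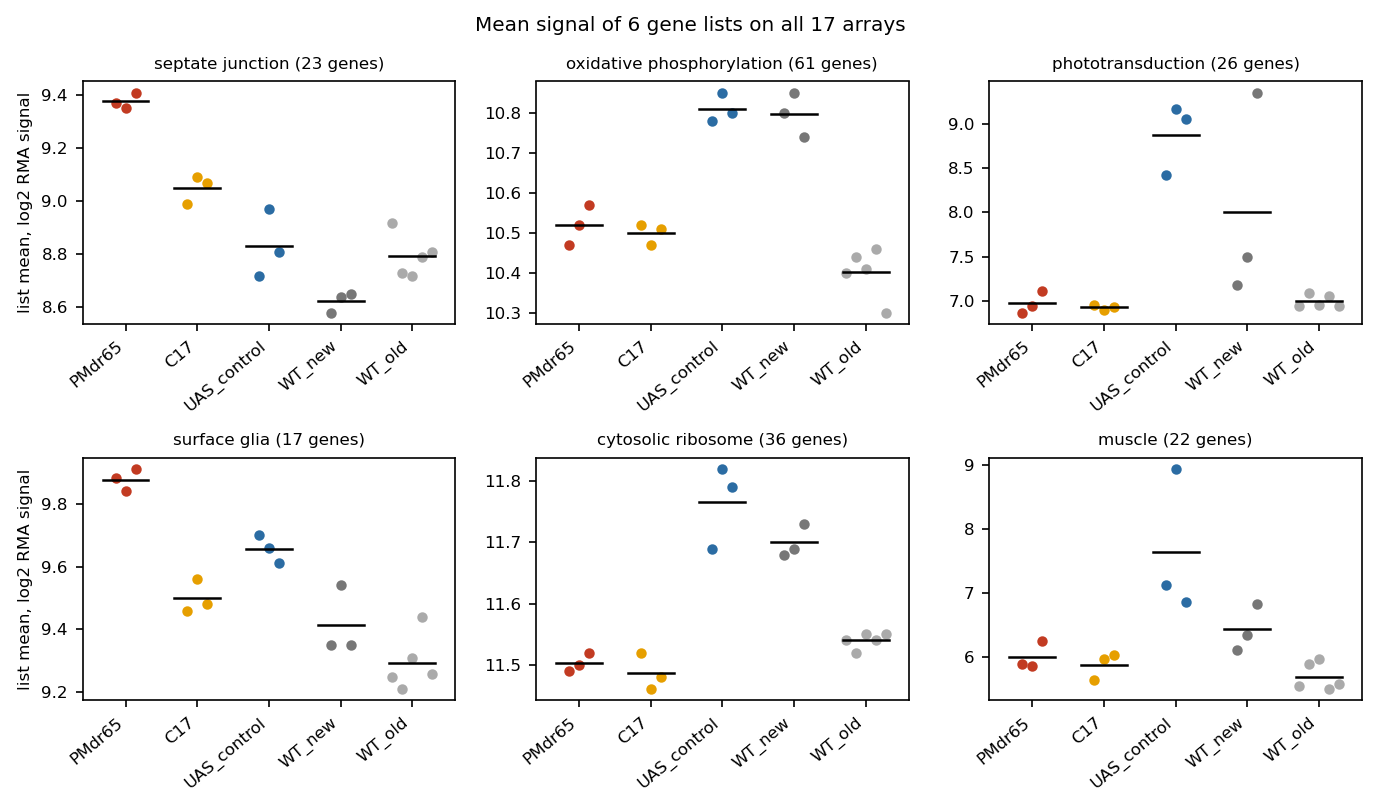
Mean log2 RMA signal (vertical axis) of 6 gene lists on all 17 arrays by group (horizontal axis), 1 point an array and a line at the group mean. Septate junction and surface glia means are highest in PMdr65. The surface glia list includes moody and Mdr65, whose null alleles lower the means of C17 and PMdr65. Oxidative phosphorylation and ribosome means are low in PMdr65, C17 and WT_old and high in UAS_control and WT_new. Eye and muscle means are high on the UAS_control arrays and, for eye, on WT_new array 3.

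Of 27 measured genes of sugar use 6 were higher and 9 lower, 55.6% in all against 41.1% of all genes. The sugar transporter gene Glut1 was at 12.55, 12.55 and 12.54 in PMdr65 and 11.90, 12.03 and 12.08 in UAS_control, a rise of 0.54 ± 0.06 (limma, adjusted p = 8.53e-06), and both other probe sets were also higher. The transporter gene Tret1-1, known for trehalose uptake at the barrier, had a change of -0.16 that was not called (limma, adjusted p = 0.501). The glycolytic genes Gapdh1, Pgk, Tpi and Pglym78 fell by 0.57, 0.54, 0.50 and 0.44 (limma, adjusted p = 0.000212, 0.000382, 0.00011 and 0.000161), each with the split shared with WT_old. Hex-C, Tps1 and Pepck1, which are known from the fat body, fell by 1.72, 2.92 and 2.10, each with UAS_control array 2 the highest array.

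Lipid genes were lower in 12 of 30 cases and higher in 4, 53.3% in all against 41.1% of all genes, with a median of -0.36. The median was -0.11 against WT_new and 0.22 against WT_old, so here too the direction turned with the control group. The lipid sensor gene SREBP was at 9.37, 9.37 and 9.42 in PMdr65 and 10.03, 9.87 and 10.02 in UAS_control and fell by 0.59 ± 0.07 (limma, adjusted p = 2.59e-05), with UAS_control above all other arrays. The fatty acid oxidation genes Mtpbeta, whd and yip2 fell by 0.37, 0.50 and 0.73 (limma, adjusted p = 0.000373, 0.00216 and 0.00148). The lipocalin gene NLaz and the acyl-CoA ligase gene Acsl were higher by 0.60 and 0.44, with PMdr65 above all 14 other arrays, as for LpR2. The lipid droplet gene Lsd-1 fell by 1.79 (limma, adjusted p = 0.0422), with 10.24 on UAS_control array 2 and 6.80 on array 1.

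Amino acid and related transporters were higher in 4 of 22 cases and lower in 3, 31.8% in all against 41.1% of all genes. NaPi-T led the gains. The amino acid transporter gene mnd was at 9.69, 9.70 and 9.76 in PMdr65 and 9.10, 9.12 and 9.51 in UAS_control, a rise of 0.47 ± 0.11 (limma, adjusted p = 0.00303). The cationic amino acid transporter gene slif fell by 1.72 ± 0.20 (limma, adjusted p = 2.17e-05), at 3.45, 3.27 and 3.78 in PMdr65 and 4.75, 5.74 and 5.17 in UAS_control, with UAS_control above all other arrays.

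Antimicrobial peptide genes, the effectors of the Toll and Imd pathways, were lower in 5 of 7 cases. Their share called was 71.4%, against 41.1% of all genes. The list median was -1.5 against UAS_control, but -0.23 against WT_new, -0.0 against WT_old and -0.03 against C17. The size of the fall thus depended on the group compared. Drsl5, set apart with the eye genes, was at 3.96, 3.76 and 3.56 in PMdr65 and 9.09, 11.38 and 7.98 in UAS_control, a fall of 5.72 ± 0.94 (limma, adjusted p = 0.0003). Drosomycin (Drs) was at 6.22, 6.47 and 6.56 in PMdr65 and 7.68, 8.55 and 8.11 in UAS_control and fell by 1.70 ± 0.35, and Mtk fell by 1.54 (limma, adjusted p = 0.00165 and 0.00224). For Drs the UAS_control arrays were above all other arrays. Immune signalling genes were mixed, with 5 of 26 higher and 3 lower, 30.8% in all. After Sting the RNA interference genes Dcr-2 and r2d2 were higher by 0.48 and 0.46 (limma, adjusted p = 0.00607 and 0.00404). The antiviral gene pst fell by 0.76 (limma, adjusted p = 0.0115). The stress peptide gene TotC was at 8.11, 3.90 and 3.50 in PMdr65 and 7.96, 11 and 9.82 in UAS_control, an overlap made by PMdr65 array 1. Its change of -4.42 (limma, adjusted p = 0.017) lost its call in 3 of the 6 fits that left out 1 array, without PMdr65 array 2, PMdr65 array 3 or UAS_control array 2 (highest adjusted p = 0.0765).

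Heat shock genes were lower in 3 of 13 cases and higher in 1, 30.8% in all against 41.1% of all genes. The small heat shock protein gene l(2)efl was at 6.79, 6.39 and 6.51 in PMdr65 and 8.09, 8.88 and 7.93 in UAS_control and fell by 1.74 ± 0.22 (limma, adjusted p = 3.18e-05), with UAS_control above all other arrays. Hsp60A fell by 0.45 (limma, adjusted p = 0.000657), and the inducible genes Hsp26, Hsp27 and Hsp68 were not called. Redox genes were lower in 5 of 18 cases and higher in 1, 33.3% in all, also under that share of all genes. The mitochondrial superoxide dismutase gene Sod2 fell by 0.38, the glutathione synthesis gene Gclm by 0.44 and Trxr1 by 0.36 (limma, adjusted p = 0.002, 0.000294 and 0.00126), and Keap1, a regulator of the oxidative stress response, was higher by 0.44 (limma, adjusted p = 0.00181).

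**Figure D5:**
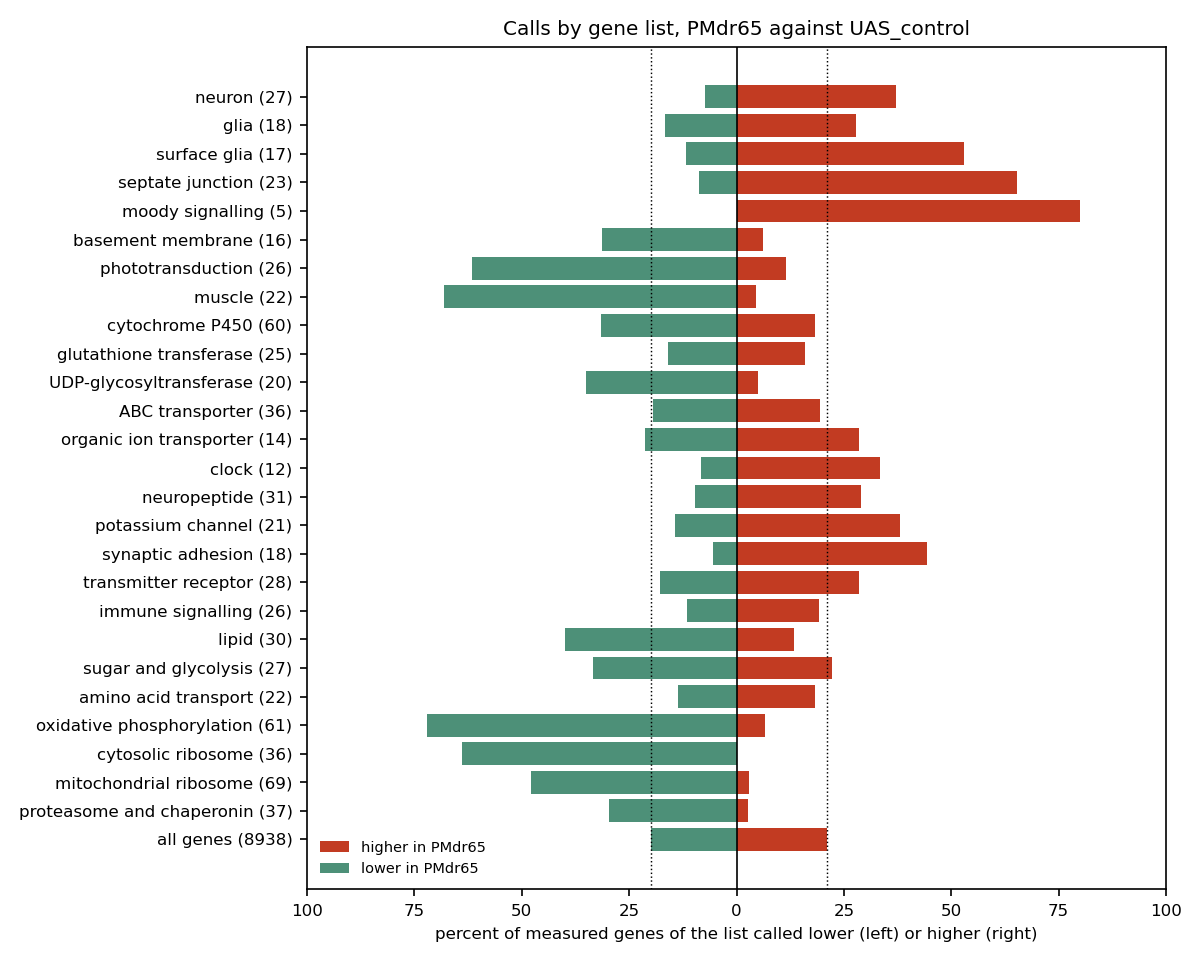
Percent of the measured genes of each list (count in brackets) called higher in PMdr65 (right, red) or lower (left, green) at an adjusted p under 0.05, with dotted lines at the 21.1% higher and 20.0% lower of all genes. Septate junction, surface glia and moody signalling genes extend to the right, and phototransduction, muscle, oxidative phosphorylation and ribosome genes to the left.

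Many of the largest losses were in genes set apart, in which 214 of 258 called losses were of 2-fold or more. Phototransduction genes were lower in 16 of 26 cases and higher in 3, 73.1% in all against 41.1% of all genes, with a median of -0.92. Arrestin 2 (Arr2), which ends the light response of rhodopsin, was at 7.04, 7.29 and 7.87 in PMdr65 and 11.53, 12.15 and 11.97 in UAS_control and fell by 4.48 ± 0.70 (limma, adjusted p = 0.000208). The eye genes retinin, Arr1, Pdh and chp fell by 4.92, 4.77, 4.69 and 4.21. The WT_new mean of Arr2 was 9.89 and those of C17 and WT_old 6.99 and 7.68, the C17 and WT_old means close to the PMdr65 level. Calx, rdgA and rdgB were higher by 0.29 to 0.49, but of 3 other rdgA probe sets 1 fell by 1.97 (limma, adjusted p = 0.0138), 1 was higher by 0.41 and 1 was at 0.01, and another rdgB probe set was at -0.15 and not called. By the rule 341 genes moved with the eye genes, of which 9 were higher and 219 lower.

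Muscle genes were lower in 15 of 22 cases and higher in 1, 72.7% in all against 41.1% of all genes, with a median of -1.8. The actin gene Act79B was at 6.53, 5.94 and 6.90 in PMdr65 and 9.69, 10.96 and 9.63 in UAS_control and fell by 3.64 ± 0.29 (limma, adjusted p = 6.9e-07). Here PMdr65 was also below all 14 other arrays, and C17 had a mean of 8.29. The myosin light chain gene Mlc2 was at 3.94, 3.94 and 5.01 in PMdr65 and 7.67, 10.35 and 6.23 in UAS_control, a fall of 3.79 ± 0.73 (limma, adjusted p = 0.00104). UAS_control array 2 was at least 1 log2 unit above both other UAS_control arrays in 15 of the 22 genes. Without it 12 were called lower, and 6 in the fit of the 6 arrays. TpnC4, a flight muscle troponin C gene, went the other way, at 5.95, 4.76 and 5.97 in PMdr65 and 3.91, 3.81 and 3.17 in UAS_control, a rise of 1.93 ± 0.68 (limma, adjusted p = 0.0353).

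Markers of tissues around the brain were partly higher in PMdr65. Of 9 fat body genes 2 were higher and 4 lower, 66.7% in all against 41.1% of all genes. The storage protein gene Lsp2 was at 7.46, 9.02 and 7.07 in PMdr65 and 5.71, 5.57 and 5.46 in UAS_control, a rise of 2.27 ± 0.47 (limma, adjusted p = 0.00171). The transferrin gene Tsf1 rose by 0.79 (limma, adjusted p = 7.26e-05), and another probe set of it by 1.24 (limma, adjusted p = 8.02e-07). The remaining Tsf1 probe set, dim at means of 3.24 in PMdr65 and 3.04 in UAS_control, was at 0.20 and not called. The yolk protein gene Yp3, made by female fat body, was at 10.14, 11.04 and 8.91 in PMdr65 and 10.72, 13.35 and 12.69 in UAS_control. Its change of -2.22 (limma, adjusted p = 0.0179) lost its call without PMdr65 array 3, UAS_control array 2 or UAS_control array 3 (highest adjusted p = 0.0896). Of 10 blood cell genes 1 was higher and 2 lower, 30.0% in all. The prophenoloxidase gene PPO2 was higher by 1.92 (limma, adjusted p = 0.000331), and NimB4 and Pxn fell by 1.37 and 0.64, while Hml, a defining marker, was not called. Tracheal genes were lower in 3 of 6 cases and higher in 1, 66.7% in all, with the chitin-binding protein gene Gasp lower by 3.33 (limma, adjusted p = 0.00167). The 86 odorant-binding and chemoreceptor genes were higher in 11 and lower in 14 cases, 29.1% in all. The part of these tissues in the other differences was not tested.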

How the data were processed

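Total RNA of whole brains was amplified, labelled and hybridised to 1-colour Affymetrix arrays. Per the submitters' processing notes the authors used affy, RMA and limma, with no versions given; the deposited values are log2 RMA signals, background-corrected, normalized and summarised by probe set. These 13290 probe sets were used as deposited, in place of the 18769 of the unfiltered table; the filter between them is not stated in the labels.

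Group means were fitted over all 17 arrays with limma 3.58.1 in R 4.3.3 (12 residual and 2.93 prior degrees of freedom), the contrast was PMdr65 minus UAS_control, and p-values were adjusted by Benjamini and Hochberg over all 13290 probe sets, with a threshold of 0.05. A gene was taken as its probe set of highest mean; 10243 probe sets had 1 symbol, 310 several and 2737 none here. The scripts were tested on simulated data. The alternatives were other tables, normalizations, priors, weights, sample sets, filters and thresholds and leaving out each array.

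Genes were named by rule: Mdr65, moody, the 15 largest brain-gene changes each way without overlap, the largest among genes with 1 group beyond all 14 others, up to 4 called members a list by adjusted p, the 5 largest eye and muscle changes, and Mdr65's neighbours. The members, the 37 gene lists and the tests were chosen with earlier results of these data known; other list members, the septate junction genes included, and the set of genes split by WT_old were chosen after values were seen. Deviations of same-numbered PMdr65 and UAS_control arrays correlated at 0.0489, 0.0453 and -0.0157, so the numbers were not taken to pair arrays. No sequences are printed, and chromosome and neighbour order come from the RefSeq Release 6 annotation.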

Additional observations from a re-analysis of the deposited data

How the results depend on the processing

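Of the 173 named genes none reversed its direction under any alternative run; other genes printed were not rerun singly. The balance of gene calls did turn, from more higher to more lower, with 1655 higher and 1682 lower with array weights, 1458 and 1580 without PMdr65 array 3, and 1610 and 1676 without UAS_control array 1. With the replicate number as a block in a fit of the 6 arrays, 1531 probe sets were called higher and 1058 lower, for genes 940 and 866, and for brain genes 919 and 697; 36 of 173 named genes lost their call, and same-numbered arrays shared only a number. Requiring a change of at least 2-fold left 123 probe sets higher and 429 lower, 75 and 354 genes, and 69 and 140 brain genes, so most calls were of small changes. Leaving out 1 array at a time gave 2377 to 3026 probe sets higher and 1637 to 2056 lower, 1458 to 1913 and 1321 to 1676 genes, 1423 to 1878 and 1126 to 1387 brain genes, and a Mdr65 change of -6.18 to -6.0; 0 to 7 named genes lost their call in each such fit. Of 3376 called brain genes 2755 kept their call and direction without UAS_control array 2 and 2355 in the fit of the 6 arrays. Chosen after seeing the data, setting apart also the genes high on UAS_control array 2 gave 1845 brain genes higher and 1480 lower, and a correlation limit of 0.5 gave 1676 and 1344. With the block the genes called lower were 14 in place of 33 for the mitochondrial ribosome, 30 in place of 44 for oxidative phosphorylation, 11 in place of 23 for the cytosolic ribosome and 5 in place of 15 for muscle, and the neuronal genes called higher were 3 in place of 10. The causes of these shifts were not tested. Background in low signals, as may hold for Mdr65 in PMdr65, understates folds.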
